A study of Mus musculus with 4 samples.

Results

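Untreated Mfp2-/- RAW264.7 cells were compared with untreated naive RAW264.7 cells, called KO and WT here, on 2 of the 4 arrays of the series. RAW264.7 is a mouse macrophage line. Mfp2, the peroxisomal multifunctional protein, is the product of Hsd17b4. The other 2 arrays held RNA of KO cells and of WT cells treated with LPS, the bacterial lipopolysaccharide that macrophages sense through Toll-like receptor 4; its dose and duration are not stated in the labels. Cy3-labelled copies of total RNA were read on 1-colour mouse arrays from Agilent, at 4 positions of 1 slide read in 1 scan. Each group had 1 array, so no difference below has a replicate error, and differences between genotypes and differences between 2 separately kept cultures cannot be told apart. The labels do not give the way the gene was altered or whether the KO line is 1 clone.

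Hsd17b4 carries the hydratase and dehydrogenase steps of peroxisomal β-oxidation, the pathway that shortens very long chain and branched fatty acids and completes the side chains of bile acids. The shortened acyl chains leave the peroxisome for mitochondrial oxidation. In macrophages lipid handling is tied to inflammatory gene programmes through the nuclear receptors PPARγ and LXR and through oxidised lipid mediators.

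Of 36995 genes and transcripts on the array, 18416 were well above background on at least 1 of the 2 untreated arrays and were compared. 16404 of them were above background on both arrays, 1202 in KO cells alone and 810 in WT cells alone. Values are processed signals scaled so that the 75th percentile of each array stands at 500, called normalized signals below, and each difference is the log2 signal of KO cells minus that of WT cells. A gene was called at a 2-fold difference, and where 1 array was dim the dim side was set no lower than the weakest signal above background on it, which makes that difference a lower bound. In all, 7.04% of the genes compared were called: 564 genes (3.06%) were higher in KO cells and 733 genes (3.98%) were lower. Of the higher genes 254 were called by such a bound, and of the lower genes 376. The median difference of genes measured on both arrays was 0.04, and 86.9% of them lay within 0.5 of 0. The lower genes reached farther, bounds included: 56 genes were lower by 8-fold or more and 4 were higher by as much.

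**Figure D1:**
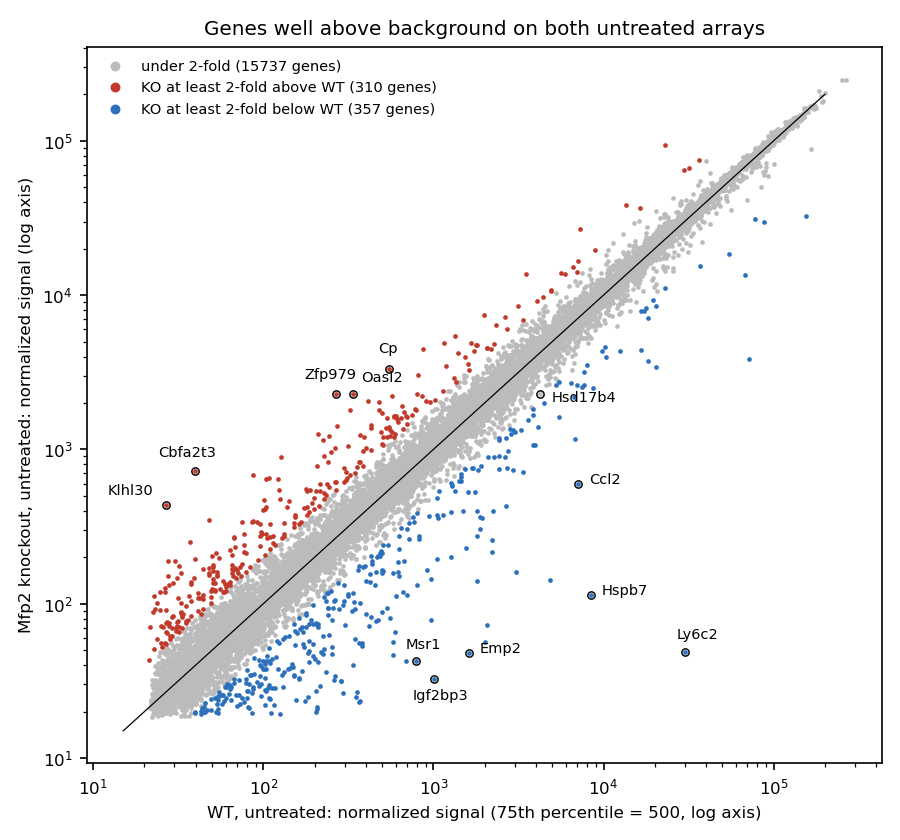
Normalized signal of each gene in KO cells (vertical, log axis) and WT cells (horizontal, log axis), for the 16404 genes above background on both untreated arrays. The diagonal marks equal signal; 310 genes lie 2-fold or more above it and 357 2-fold or more below it, with Ly6c2 farthest.

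The LPS-treated pair measured the same 2 lines on the other arrays of the same slide and scan, so genotype and other differences between the lines cannot be told apart there either. There 6.11% of 17591 genes compared were called: 291 (1.65%) were higher in KO cells and 783 (4.45%) lower. Of the genes called higher without LPS, 324 could also be compared with LPS, and 90 (27.8%) were called higher there too, while 10 were called lower. Of those called lower without LPS, 485 could be compared, and 220 (45.4%) were called lower again, while 8 were called higher. With normexp, another background correction whose offset shrinks the differences of dim probes, 43 of the 214 called genes that are named below were under 2-fold, and the fold of 100 was over 1.5 times smaller; none turned its sign. With the mean of a gene's probes 14 were under 2-fold. Those that lost their call are named in the paragraph that describes them.

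Spots that lay together on the slide were examined before single genes, because some groups of neighbouring spots differed together between the untreated arrays. For each probe the median KO minus WT difference of the other measured spots within 2 rows and 2 columns was taken. 201 of the genes compared sat among neighbours with a median of 0.5 or more in either direction, and 51 of them (25.4%) were called, 41 lower and 10 higher. Of 35 of these called genes that could be compared with LPS, 4 were called the same way there. Bin1, a membrane-curving adaptor, had a normalized signal of 160.1 in KO cells and 3054 in WT cells beside neighbours at a median of -1.95, and its other probe differed by 0.35. The ribosomal protein gene Rps24 had 3869 in KO cells and 72029 in WT cells with neighbours at -1.02, and its other probes differed by -0.29 to 0.44; with their mean it was under 2-fold. The ribosomal pseudogene Rpl17-ps8 had 142 in KO cells and 4856 in WT cells without LPS, with neighbours at -0.79, but 5333 in KO cells and 4942 in WT cells with LPS. Elk1, a serum response factor partner, differed by -2.25 with neighbours at -2.23. With LPS the differences of these 4 genes lay between -0.68 and 0.11. For the genes named below the neighbours' median is given wherever it reached 0.5.

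**Figure D2:**
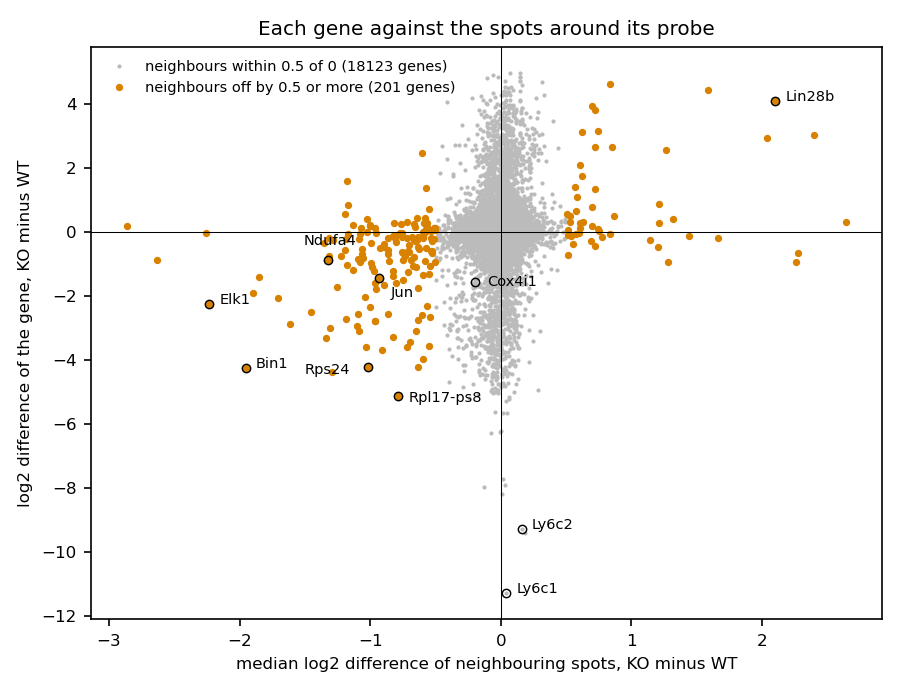
Log2 difference of each gene, KO minus WT, measured values without bounds (vertical), against the median log2 difference of the spots around its probe (horizontal). Bin1, Rps24, Rpl17-ps8, Elk1, Jun and Lin28b lie among neighbours that differ in the same direction; Ly6c1 and Ly6c2 lie among neighbours near 0.

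The targeted gene was measured by 1 probe, on chromosome 18 from 50355686 to 50355745 in mm9, the build of the array's coordinates. Hsd17b4 had a normalized signal of 2299.8 in KO cells and 4211 in WT cells, and 1348 in KO cells and 3089.7 in WT cells with LPS. The untreated difference of -0.87 did not reach 2-fold, and the KO signal stood at 54.6% of the WT signal. With LPS the difference was -1.20. 441 genes measured on both arrays were lower still without LPS. Which part of the gene was altered is not given in the labels, so this probe alone does not check the label. Within 5 Mb of it 42 other genes were compared, with a median of 0.01. Of these 3 were higher and 3 lower, beside 3.06% higher and 3.98% lower among all genes compared. The nearest of the 42 with a symbol, Tnfaip8, was lower at -1.13, and Ppic, a cyclophilin, was higher at 1.14. Tnfaip8 was under 2-fold with the mean of its probes.

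Macrophage identity was plain on both arrays. Of 20 macrophage markers 19 were above background on at least 1 untreated array, 19 in KO cells and 18 in WT cells, and Marco was dim on both. The summed normalized signals of the list were 648957 in KO cells and 636639 in WT cells. Fcgr1 (1.6) and Mertk (a bound of 2.72, dim in WT cells) were called higher in KO cells and 0 markers lower. Over all genes compared 3.06% were higher and 3.98% lower. Csf1r, the receptor for macrophage colony-stimulating factor, had 82511 in KO cells and 80618 in WT cells. Lyz2, the macrophage lysozyme, had 146370.0 in KO cells and 143567 in WT cells. Markers of other cell types were mostly dim: 5 of 13 neutrophil, 4 of 10 B cell, 6 of 20 T and NK cell, 4 of 11 dendritic cell, 3 of 15 fibroblast and epithelial and 4 of 12 endothelial and erythroid markers were above background on at least 1 untreated array. Ly6g, Cd3d, Flt3, Col1a1, Epcam and Cdh5, which are among the genes that define those cells, were below background on both arrays. Other members were brighter: the summed signal of the neutrophil list was 51437 in KO cells and 50253 in WT cells. With KO first, sums were 24830 and 27667 for the dendritic cell list and 6200 and 9150 for the fibroblast and epithelial list. The B cell list had 127 and 165, and the endothelial and erythroid list 195 and 199. The summed signal of the T and NK cell list was 1918 in KO cells and 4458 in WT cells, most of it in WT cells from Tbx21, described below.

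The largest differences were genes that were bright in WT cells and at or near background in KO cells, with and without LPS. Ly6c1 and Ly6c2 encode the Ly6C surface antigens of monocytes. Ly6c1 had a normalized signal of 12 in KO cells, which was not above background, and 29720.0 in WT cells, so it was at least 1627-fold lower. Ly6c2 had 48.9 in KO cells and 30313 in WT cells, 619-fold lower. With LPS Ly6c1 had 17.3 in KO cells and 29099 in WT cells, and Ly6c2 had 12.5 in KO cells and 29599 in WT cells. Both were thus bright on the 2 WT arrays and at or near background on the 2 KO arrays; the spots around the Ly6c2 probe had a median of -0.70 in the LPS pair and near 0 in the untreated pair. The probes of the 2 genes are 60 bases long and identical at 57 positions, so their signals cannot be taken as separate measurements of 2 genes. The last 30 bases of each, positions 31 to 60, are shown because they hold most of what separates them; the array file places them on the minus strand of chromosome 15 in mm9, from 74875495 to 74875554 and from 74938637 to 74938695. Capitals mark bases that differ.
Ly6c1: tctggggtcctgcagggttcccatgtAtgC
Ly6c2: tctggggtcctgcagggttcccatgtGtgT
Counted from the 5′ end of the probe, with the Ly6c1 base first, the differences are G8C, A57G and C60T. A second Ly6c1 probe differed by -8.76. Ly6a, another member of the family, had 6.28 in KO cells, not above background, and 46.4 in WT cells. Of 24 Ly6 family genes 9 were compared. Of these 4 were lower and 0 higher, beside 3.98% lower and 3.06% higher among all genes compared. The fourth lower member of the family, Plaur, is the urokinase receptor and is given with the proteases. Ly6a was under 2-fold with normexp.

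Tbx21 encodes T-bet, a transcription factor known best from T helper 1 and natural killer cells. It had 4.13 in KO cells, below background, and 2789 in WT cells, at least 153-fold lower, and 4.92 in KO cells and 2078 in WT cells with LPS. Runx3, which acts with T-bet in T cells, had 3.75 in KO cells and 58.1 in WT cells, a call that normexp ended. Hspb7, a small heat shock protein, had 113 in KO cells and 8425 in WT cells, 74.3-fold lower, and its second probe differed by -4.65. The difference was larger with LPS, at -8.13. Hspb7 was the only member called lower among 23 heat shock genes compared, none of which was called higher. Over all genes compared 3.98% were called lower and 3.06% higher.

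Further genes were lower by 8-fold or more in untreated KO cells, and all of those named in this paragraph were called lower with LPS too. Emp2, an epithelial membrane protein of the tetraspan group, had 48.1 in KO cells and 1619 in WT cells. Igf2bp3, an RNA-binding protein of the let-7 axis, had 32.6 in KO cells and 1003 in WT cells. Ndst1, which sulfates heparan sulfate, had 72.3 in KO cells and 2069.9 in WT cells. These 3 were 33.7-, 30.8- and 28.6-fold lower without LPS, and their log2 differences with LPS were -4.93, -4.78 and -4.23. Pgap4, which modifies GPI anchors, was 16.1-fold lower. Fhit, a dinucleotide hydrolase, was 14-fold lower. Aldh1l1, which oxidises formyl-tetrahydrofolate, was 13.2-fold lower. Their differences with LPS, -4.03, -3.84 and -3.64, were close to those without. Among genes dim in KO cells the lower bounds were 67.1-fold for Anxa8, 49.4-fold for the metalloreductase Steap1, 49-fold for the actin-binding Avil and 41.6-fold for Plet1. All 4 were dim in KO cells with LPS too, against 405, 1640.3, 887 and 420.3 in WT cells. Cytip, Rbfox1 and Ptpdc1 were lower by at least 21.1-, 20.2- and 19.2-fold, Mapk12 by 15.7-fold, Mira by 11.1-fold and Prdm13 by 9.9-fold. Other probes of these genes often differed less: the second probe differed by -0.40 for Cytip, -1.09 for Avil and -1.24 for Plet1, other probes differed by -2.27 and -0.93 for Igf2bp3 and -2.19 and -1.47 for Fhit, and 1 of the other probes of Mapk12 by -0.84 while the other gave no difference beyond its bound. Il7r, the interleukin 7 receptor, had 19.8 in KO cells and 203 in WT cells, and 30.9 in KO cells and 536 in WT cells with LPS. Cox6a2, the muscle form of a cytochrome oxidase subunit, had 216 in KO cells and 2200.3 in WT cells. Lims2, a focal adhesion protein, had 23.5 in KO cells and 371 in WT cells, and 418 in KO cells and 2128 in WT cells with LPS.

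**Figure D3:**
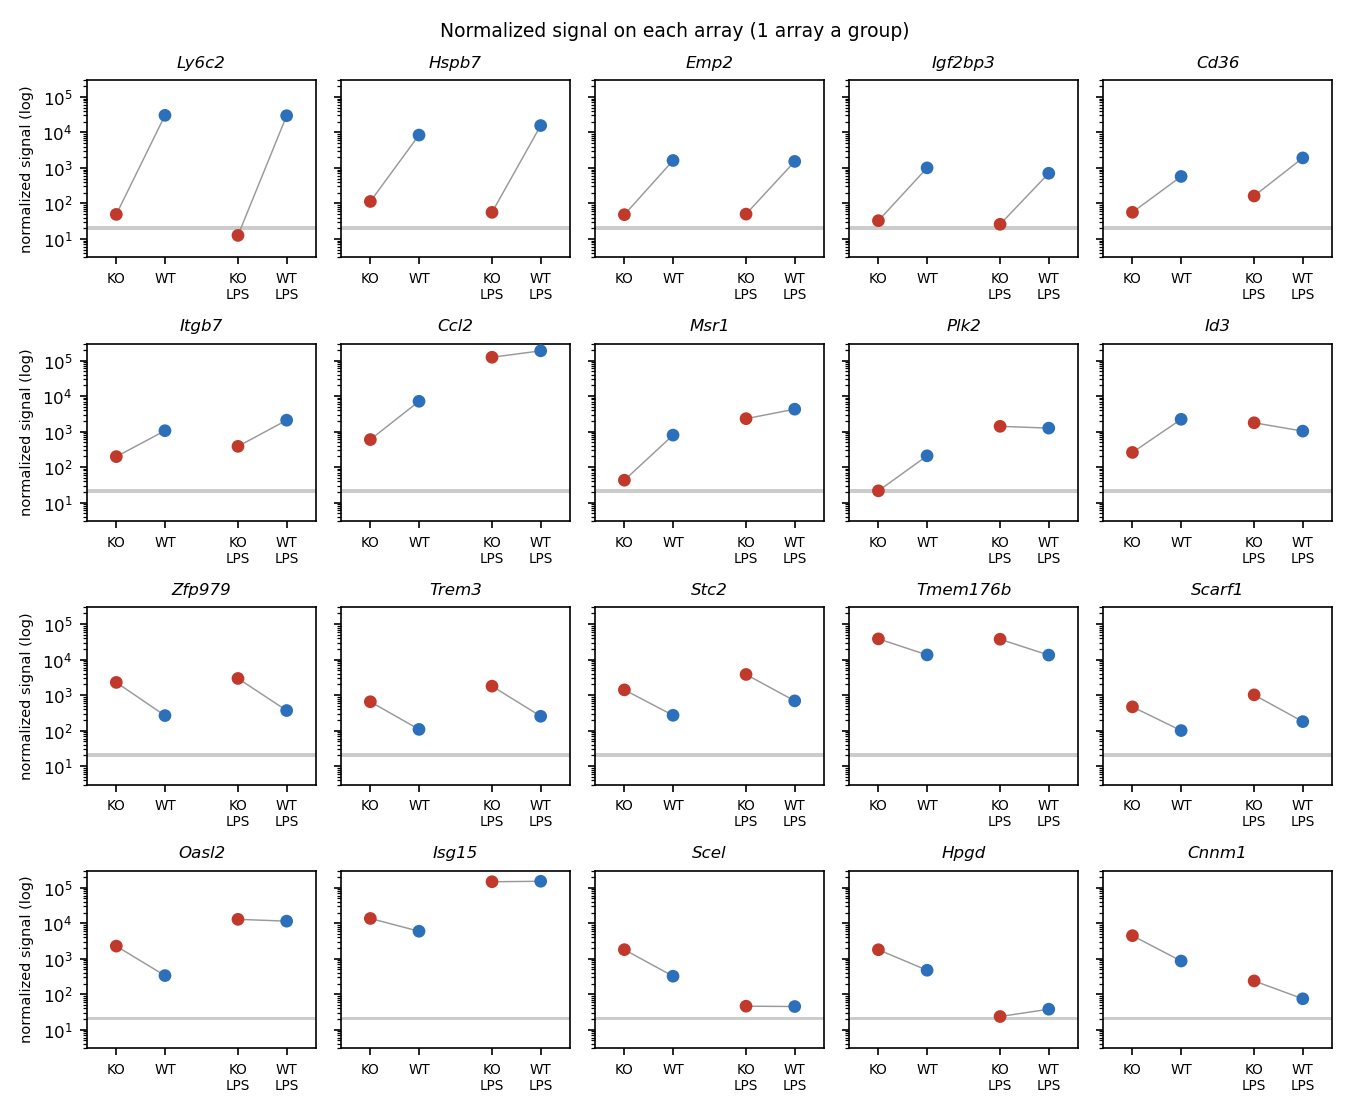
Normalized signal (log axis) of 20 genes on each of the 4 arrays, KO in red and WT in blue, with a line joining the 2 genotypes of a condition; the grey band spans the weakest signals above background on the 4 arrays, 18.3 to 23.4. Ly6c2, Hspb7, Emp2, Igf2bp3, Cd36 and Itgb7 are lower in KO cells with and without LPS, Ccl2, Msr1, Plk2, Id3, Oasl2, Isg15, Scel and Hpgd differ by 2-fold without LPS alone, and Zfp979, Trem3, Stc2, Tmem176b, Scarf1 and Cnnm1 are higher in KO cells in both conditions.

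The genes higher in KO cells spanned transcription factors, receptors and secreted proteins. Cbfa2t3, a transcriptional co-repressor of blood progenitors, had 722 in KO cells and 39.8 in WT cells, 18.2-fold higher, but 4.62 in KO cells and 20.8 in WT cells with LPS, both below background. Klhl30 had 435 in KO cells and 26.9 in WT cells and was also dim on both LPS arrays, at 5.16 in KO cells and 5.07 in WT cells. Zfp979, a zinc finger gene, had 2285 in KO cells and 266 in WT cells, and 2957 in KO cells and 369 in WT cells with LPS. The first 2 were thus seen in untreated cells alone, while Zfp979 was higher in KO cells by 8.6-fold without LPS and 8.02-fold with it. Trem3, an activating myeloid receptor, had 653 in KO cells and 108 in WT cells, and 1794 in KO cells and 254 in WT cells with LPS. Stc2, a secreted glycoprotein, had 1409.5 in KO cells and 271 in WT cells, and 3829 in KO cells and 689.5 in WT cells with LPS. Nyap1, a phosphoinositide 3-kinase adaptor, was 6.28-fold higher without LPS and 8.7-fold higher with it. All 3 were called higher in KO cells in both conditions. Cp, the ferroxidase ceruloplasmin, had 3308 in KO cells and 546 in WT cells, and all 4 of its other probes were higher as well, by 1.04 to 2.21. Serpinf1, the secreted factor PEDF, had 685 in KO cells and 86.6 in WT cells. Scel, a cornified envelope precursor, had 1808 in KO cells and 323 in WT cells, against 46.2 in KO cells and 45.2 in WT cells with LPS. Cnnm1 had 4482 in KO cells and 865 in WT cells, and 238 in KO cells and 74.6 in WT cells with LPS. For Scel the genotypes were level with LPS, while Cnnm1 stayed 3.19-fold higher in KO cells at a lower level. Vmn1r65, Trp53i11, Asb10, Mgarp, Aph1b and Slc9a9 were higher by 7.23-, 7-, 6.83-, 6.77-, 6.19- and 5.49-fold.

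The largest bounds in this direction were smaller and came from weak signals. Fam3b, a secreted cytokine-like protein, had 162 in KO cells and 5.57 in WT cells, at least 7.66-fold higher. Mertk, a phagocytic receptor for dying cells, had 140.0 in KO cells and 5.37 in WT cells, at least 6.61-fold higher. Rgs9, Cdrt4os1, Olfr981, Cpa5, Ces1f and B3gat2 were higher by at least 6.91-, 6.26-, 6.17-, 5.85-, 5.73- and 5.38-fold. The neighbours of the Cpa5 probe had a median of 0.83. All 8 genes were below background on both LPS arrays. Kmo and Hsh2d, called higher without LPS and lower with it, are given in the closing section.

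The enzymes around Hsd17b4 showed no 2-fold difference. Of 22 peroxisomal β-oxidation genes compared, none was called in either direction, the median difference was 0.17 against 0.05 over all genes compared, and 16 lay above 0. Acaa1a, the thiolase of the last step, had 62750.0 in KO cells and 55998 in WT cells. Hsd17b4 itself was the lowest member and Hacl1, the lyase of phytanic acid oxidation, the highest at 0.76. Of 26 peroxisome biogenesis and ether lipid genes none was called and the median was 0.14. Mitochondrial fatty acid oxidation was compared in 21 genes, none called, and a median of 0.19. Its highest member was the dehydrogenase Acadl at 0.66, followed by Cpt1a, the carnitine palmitoyltransferase of the outer membrane, at 0.47. Of 26 cholesterol genes none was called, 21 lay above 0 and the median was 0.21. None of 24 sphingolipid genes was called either, and the largest difference there was -0.95 for the ganglioside synthase St3gal5. The 8 other 17β-hydroxysteroid dehydrogenases compared held no call.

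Lipid uptake and storage genes differed in both directions. Of 22 compared, 5 were higher and 3 lower, beside 3.06% higher and 3.98% lower among all genes compared. Cd36, the fatty acid translocase, had 56.1 in KO cells and 575 in WT cells, and 162 in KO cells and 1911 in WT cells with LPS. Pparg, the nuclear receptor that drives Cd36 and Fabp4, had 47 in KO cells and 255 in WT cells. Fabp4, a lipid chaperone, had 42.6 in KO cells and 108 in WT cells. These 3 lower genes were 10.2-, 5.43- and 2.53-fold lower. With normexp the Cd36 log2 difference was -2.33 in place of -3.36, and the Fabp4 log2 difference was -0.59, under 2-fold. Fabp5, a related chaperone, was higher, with 65137 in KO cells and 29793 in WT cells. Fabp3 had 281 in KO cells and 103 in WT cells. Lpin2, a phosphatidate phosphatase, had 4574 in KO cells and 2055 in WT cells. The lipid droplet genes Plin1 and G0s2 were higher by bounds of 1.29 and 1.18, at 51.7 and 47.8 in KO cells and dim in WT cells. Of 21 synthesis, elongation and desaturation genes, Fads3 (1.86) and the dehydratase Hacd4 (1.47) were higher. Hacd1, another 3-hydroxyacyl-CoA dehydratase of elongation, was lower, with 275 in KO cells and 1806 in WT cells, and 278 in KO cells and 1967 in WT cells with LPS. Among 15 LXR targets and efflux genes, the apolipoprotein Apoc2 was higher, with 642 in KO cells and 122 in WT cells, and the phospholipid transfer protein Pltp was lower, with 43.9 in KO cells and 202 in WT cells. Plin1 and G0s2 too were under 2-fold with normexp. The cholesterol exporter Abcg1 was at 0.92, under the threshold. Of 22 phospholipid genes, the phospholipase Pla2g2e (-1.48) and the acyltransferase Agpat4 (-1.32) were lower.

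Enzymes and receptors of lipid mediators were called in 1 direction. Of 18 prostaglandin and leukotriene genes compared, 5 (Ptgir, Alox5, Ltc4s, Ephx1 and Hpgd) were higher and 0 lower, with a list median of 0.21. Among all genes compared 3.06% were higher and 3.98% lower. Hpgd, which inactivates prostaglandins, had 1799 in KO cells and 475 in WT cells, against 23.6 in KO cells and 37.9 in WT cells with LPS. Alox5, the lipoxygenase that starts leukotriene synthesis, had 4329 in KO cells and 1742 in WT cells. Ltc4s, the leukotriene C4 synthase, had 1745 in KO cells and 667 in WT cells. They were 3.78-, 2.49- and 2.62-fold higher without LPS, and none of the 3 was called with it. The epoxide hydrolase Ephx1 was 2.96-fold higher, and the prostacyclin receptor Ptgir 2.48-fold, though under 2-fold with normexp.

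Immediate early genes, the transcription factors and RNA regulators that growth factor and stress signals induce within minutes, were lower together in untreated KO cells. Of 26 compared, 9 were lower, 0 were higher, 24 lay below 0 and the median was -0.72. Among all genes compared 3.98% were lower and 3.06% higher. Fosl1 had 32.2 in KO cells and 259.9 in WT cells. Fos had 755 in KO cells and 2689.8 in WT cells, and Junb, its partner in AP-1, had 8232 in KO cells and 17812 in WT cells. These were 8.08-, 3.56- and 2.16-fold lower. The zinc finger factors Egr3, Egr2 and Egr1 differed by -1.60, -1.19 and -1.03. The mRNA-destabilising protein gene Zfp36 differed by -1.17, and Myc by a bound of -1.60. Jun, at 901 in KO cells and 2432 in WT cells, sat among neighbours with a median of -0.94; without it 8 members were lower and the list's median was -0.71. With LPS the same list had a median of -0.03 and 4 members lower; Fosl1 was then at 0.29 and Junb at -0.07, while Egr2 and Egr3 remained lower, at -1.33 and a bound of -1.29. The MAP kinase feedback genes that such signals also induce had 4 of 19 members lower and 0 higher. The phosphatase gene Dusp5 had 48.6 in KO cells and 219.6 in WT cells, and Dusp4 had 390.2 in KO cells and 1267 in WT cells. Dusp14 was at -1.19, and Rasa1, a Ras GTPase-activating protein, at -1.22 with other probes from -1.09 to 1.79. Egr1 and Myc were under 2-fold with normexp, and Rasa1 with the mean of its probes.

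**Figure D4:**
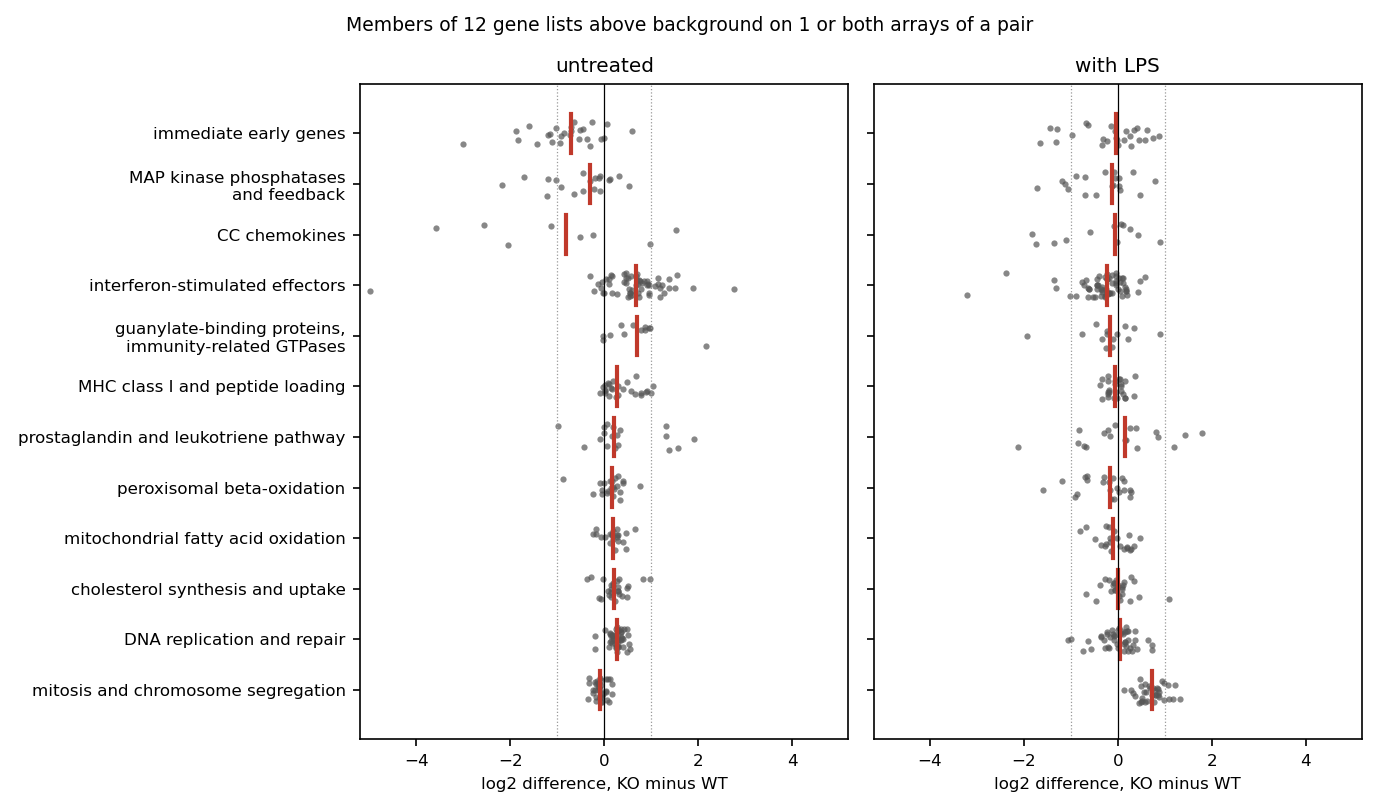
Log2 difference, KO minus WT, of each member as measured, without bounds (grey points, spread vertically for legibility and drawn at -5 where lower) of 12 gene lists without LPS (left) and with LPS (right), with the list's median in red and dotted lines at 2-fold. Immediate early genes lie mostly left of 0 and interferon-stimulated effectors mostly right of it without LPS; with LPS the medians of both lists are nearer to 0.

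The Id genes, inhibitors of basic helix-loop-helix factors and targets of BMP signals, were all lower. Id3 had 258 in KO cells and 2211 in WT cells, Id1 had 76.8 in KO cells and 463 in WT cells, and Id2 had 398 in KO cells and 1491 in WT cells. Id4 had 13.9 in KO cells, below background, and 56.9 in WT cells. With LPS Id3 had 1764 in KO cells and 1027 in WT cells and Id2 had 362 in KO cells and 838 in WT cells, so Id2 stayed lower and Id3 did not. Endoglin, Eng, a TGF-β co-receptor, was higher, with 338 in KO cells and 92.4 in WT cells, though its other probe differed by 0.16. Bmp1, a procollagen protease, was called at 1.03 while its other probe gave -1.12. The growth arrest genes Gadd45g, Plk2 and Plk3 differed by -2.42, -3.28 and -1.06. Plk2 had 21.3 in KO cells and 207 in WT cells without LPS, and 1403 in KO cells and 1248 in WT cells with it. Of 26 p53 targets and growth arrest genes 4 were lower, the fourth being the death receptor Tnfrsf10b (-3.18), and 1, Trp53inp1 (1.32), was higher. Among all genes compared 3.98% were lower and 3.06% higher. Among 17 Wnt, Notch and hedgehog genes, Wnt6 was higher at 1.87, and Wnt5a, Fzd4, Smo and Gli1 were lower, the first 3 by bounds of -2.15, -1.89 and -1.60 and Gli1 at -1.45, from WT signals of 55.5 to 82.5. Id4, Bmp1, Plk3, Trp53inp1, Smo and Gli1 were under 2-fold with normexp, and Bmp1 also with spike-in centring and the mean of probes.

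Among chemokines and cytokines, calls lower in untreated KO cells outnumbered calls higher. This also held over all genes compared, of which 3.98% were called lower and 3.06% higher. Of 8 CC chemokines compared, 4 were lower and 1 was higher. Ccl2, which recruits monocytes, had 594 in KO cells and 7111 in WT cells. Ccl4 had 3443 in KO cells and 20368 in WT cells, and Ccl3 had 7936 in KO cells and 17338 in WT cells. Ccl7 was lower by a bound of -1.29. Ccl5 went the other way, with 2292 in KO cells and 796 in WT cells. With LPS the differences of Ccl2, Ccl4, Ccl3 and Ccl5 were -0.60, -0.03, 0.07 and 0.11, all under 2-fold, at signals from 62517 to 187981 in WT cells, whereas Ccl7 was at -1.82. Of 6 CXC and CX3C chemokines, the neutrophil attractant Cxcl2 was lower, with 29.2 in KO cells and 214 in WT cells, and Cxcl10 was lower, with 1153 in KO cells and 2414 in WT cells. Of 21 interleukins and growth factors 4 were lower and 1 was higher, with a median of -0.02. The interleukin 1 receptor antagonist Il1rn had 718 in KO cells and 3351 in WT cells, the mitogen Pdgfb had 2513 in KO cells and 8709.5 in WT cells, and the EGF receptor ligand Hbegf had 16 in KO cells and 124 in WT cells. Il15 was higher at 1.08, and Igf1 lower at -1.32. Of 23 TNF superfamily genes 5 were lower and 0 higher, with 11 above 0. Tnf had 1553 in KO cells and 3599 in WT cells, and its second probe differed by -1.24. Tnfrsf10b had 31.4 in KO cells and 284 in WT cells, and Tnfsf15, Tnfsf12 and Lta were lower by bounds of -2.93, -1.44 and -1.39. The receptors of interleukins and growth factors differed less: Il7r was the only one of 27 called. Ccl7, Il15, Tnfsf12 and Lta were under 2-fold with normexp, and Cxcl10 and Igf1 with the mean of their probes.

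The Toll-like receptor and NF-κB lists had medians near 0, at 0.05 and -0.07, though some NF-κB genes were called. Of 20 Toll-like receptors and adaptors none was called, and the largest difference measured on both arrays was 0.80 for Tlr6. Of 34 NF-κB genes, Traf1, Irak3 and Tnip3 were lower at -1.90, -1.84 and -1.03, and Nfkbiz, a nuclear IκB protein, was higher at 1.02. Over all genes compared 3.98% were lower and 3.06% higher. Traf1, a TNF receptor adaptor and NF-κB target, had 1061 in KO cells and 3967 in WT cells, and 28123 in KO cells and 28134 in WT cells with LPS. Gpr84 and Adora2b, receptors for medium-chain fatty acids and adenosine, were lower at -1.39 and -1.45. The regulator of G protein signalling Rgs16 had 78 in KO cells and 973 in WT cells. Nfkbiz was under 2-fold with normexp and spike-in centring, and Tnip3 with the mean of its probes.

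Interferon-stimulated effectors, the antiviral genes induced through type I interferon, were higher together in untreated KO cells. Of 60 compared, 13 were higher, 1 was lower, 53 lay above 0 and the median was 0.68, against 0.05 over all genes. Among all genes compared 3.06% were higher and 3.98% lower. Oasl2, an oligoadenylate synthetase-like protein, had 2275 in KO cells and 336 in WT cells, 6.76-fold higher. Isg15, the ubiquitin-like modifier, had 13689 in KO cells and 5969.7 in WT cells. Mx1, the antiviral GTPase, had 82 in KO cells and 29.1 in WT cells. Ddx60, Ifi44l, Ifi44, Ifit3b, Zbp1, Isg20, Phf11b, Phf11d, Slfn8 and Trim30d were higher by 1.09 to 1.90 on the log2 scale. The exception was Slfn4, a schlafen gene of myeloid cells, which had 12.2 in KO cells, below background, and 472 in WT cells, and 1258 in KO cells and 11727 in WT cells with LPS. With LPS the list had a median of -0.24, 0 members higher and 5 lower; Oasl2 then had 12924 in KO cells and 11484 in WT cells, and Isg15 had 148174 in KO cells and 152814 in WT cells. Irf7, a factor that drives these genes, was at 0.90, under 2-fold, and none of 25 interferon, IRF and STAT genes was called. The guanylate-binding proteins and immunity-related GTPases had no call among 12. Their median was 0.69 as measured and 0.46 with bounds in place of values from a dim array. Of 18 nucleic acid sensors the RNA helicase Dhx58 (1.21) and Zbp1 (1.28) were higher. MHC class I and peptide loading genes lay above 0 in 24 of 26 cases with a median of 0.27, and the peptide transporter Tap1 was called at 1.03. Ddx60, Mx1, Ifit3b and Tap1 were under 2-fold with normexp, Tap1 also with spike-in centring, and Ifi44, Slfn8, Dhx58 and Tap1 with the mean of their probes.

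Promoters of 4 of the interferon-stimulated effectors that were higher are shown, chosen among those that hold the letters of a known control element of such genes, the interferon-stimulated response element (ISRE). Each is the 250 bases before the gene's start in RefSeq's GRCm38.p6 annotation, 5′ to 3′ on the gene's strand, and capitals mark matches, on either strand, to GAAA followed by any 2 bases and GAAA. Isg15 is at chr4:156200819-156201068 on the minus strand, with 3 overlapping matches. Ifit3b is at chr19:34607707-34607956 on the plus strand with 2 matches, and Ddx60 at chr8:61927837-61928086 on the plus strand with 2. Trim30d is at chr7:104507850-104508099 on the minus strand with 1.
Isg15: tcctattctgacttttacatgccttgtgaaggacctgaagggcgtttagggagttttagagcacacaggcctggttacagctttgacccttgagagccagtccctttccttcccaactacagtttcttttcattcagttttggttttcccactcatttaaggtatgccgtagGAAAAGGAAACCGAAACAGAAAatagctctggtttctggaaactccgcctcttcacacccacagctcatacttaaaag
Ifit3b: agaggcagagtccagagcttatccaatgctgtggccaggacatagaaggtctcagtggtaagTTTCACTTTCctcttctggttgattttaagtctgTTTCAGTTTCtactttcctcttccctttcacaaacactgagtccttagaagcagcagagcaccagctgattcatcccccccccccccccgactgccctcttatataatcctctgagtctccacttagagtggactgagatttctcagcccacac
Ddx60: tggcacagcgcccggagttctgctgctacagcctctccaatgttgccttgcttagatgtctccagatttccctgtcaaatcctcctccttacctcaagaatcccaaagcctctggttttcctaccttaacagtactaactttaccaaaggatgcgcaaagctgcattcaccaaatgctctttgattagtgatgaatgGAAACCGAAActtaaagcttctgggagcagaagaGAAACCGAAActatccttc
Trim30d: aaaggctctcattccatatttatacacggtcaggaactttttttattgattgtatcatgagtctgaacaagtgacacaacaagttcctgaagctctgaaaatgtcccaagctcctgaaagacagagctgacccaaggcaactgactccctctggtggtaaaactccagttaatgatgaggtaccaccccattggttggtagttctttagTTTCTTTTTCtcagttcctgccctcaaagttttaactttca
The first capital stands 78 bases before the start in Isg15, 188 in Ifit3b, 53 in Ddx60 and 41 in Trim30d. Of the 13 effectors that were higher 11 had a promoter in the table, and 6 of these held the ISRE letters (54.5%), as did 18 of the 47 effectors compared that had one (38.3%). Among all genes compared 353 of 10876 held them (3.25%), among all genes called higher 22 of 340 (6.47%) and among all called lower 19 of 403 (4.71%). Oasl2, the effector with the largest difference, had no match in its window. For the immediate early genes the cyclic AMP element TGACGTCA was found in 2 of 20 promoters of genes compared and the AP-1 letters TGANTCA in none; of all genes compared 3.03% and 5.82% held them. A match describes the letters in these windows and is not evidence of binding.

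Antigen presentation of class II and costimulation had calls at low signals. Cd86, the costimulatory ligand, had 98.2 in KO cells and 4.75 in WT cells, and H2-Ab1 had 76.7 in KO cells and 20.7 in WT cells. H2-Oa was higher at 1.44 and H2-Eb1 lower at -1.15, with 55.3 in KO cells and 123 in WT cells. Of 12 complement and acute phase genes 3 were higher and 0 lower, beside 3.06% higher and 3.98% lower among all genes compared. The 3 were Cp, the histamine-forming Hdc (2.01) and complement factor B, Cfb (2.17). The other Cfb probe gave 0.09. H2-Ab1, H2-Oa and H2-Eb1 were under 2-fold with normexp.

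Receptors for uptake of particles and dying cells were called in both directions. Of 22 compared, 5 were higher and 4 lower, beside 3.06% higher and 3.98% lower among all genes compared. Msr1, the class A scavenger receptor, had 42.5 in KO cells and 792 in WT cells without LPS, and 2306 in KO cells and 4261 in WT cells with it. Its second probe differed by -4.63. Clec4e, the glycolipid receptor Mincle, had 1069.8 in KO cells and 3848 in WT cells. Cd36 was lower too, as given above, and Stab1 was lower by a bound of -1.51. Scarf1, a class F scavenger receptor, was higher, with 468 in KO cells and 101 in WT cells, and 1019 in KO cells and 179.6 in WT cells with LPS. The receptor kinase Axl had 1154 in KO cells and 223 in WT cells, and Gas6, the ligand of Axl and Mertk, had 542 in KO cells and 123 in WT cells. Axl, Mertk and Gas6 were thus higher at once in untreated KO cells. Siglec1, the sialoadhesin that interferon induces, was higher by a bound of 2.20. Among 29 Fc, Trem and paired receptors, Trem3, Treml2 (2.24), Treml4 (1.62), the high-affinity IgG receptor Fcgr1 (1.60) and Cd33 (1.33) were higher. Siglech (-1.08), Lilrb4a (-1.07) and Pilra (-1.34) were lower, and another probe of Pilra gave 0.69. Of the Ms4a and Tmem176 families Tmem176b had 38557 in KO cells and 13606 in WT cells, and 37633 in KO cells and 13457 in WT cells with LPS. Tmem176a followed it at 1.74. Ms4a6b and Ms4a6c were lower at -2.22 and -1.95 and Ms4a4b by a bound of -2.08, and Ms4a6b, Ms4a4b and Ms4a6c were lower again with LPS at -2.38, -2.11 and -1.11. Stab1, Siglec1, Treml4, Pilra and Ms4a4b were under 2-fold with normexp, and Pilra also with the mean of its probes.

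Adhesion and matrix genes had 6 lower and 3 higher of 29, where 3.98% of all genes compared were lower and 3.06% higher. Itgb7, the β7 integrin of gut homing, had 196 in KO cells and 1055 in WT cells, and 382 in KO cells and 2086 in WT cells with LPS. F11r, a junction adhesion molecule, had 3.68 in KO cells, below background, and 183 in WT cells. Jam2 (-1.64), Itga5 (-1.26), Cd44 (-1.21) and Itga7 (-1.20) were lower as well, and Itgb3 (2.45), Itgax (1.31) and Selp (a bound of 1.07) higher. Of 24 proteases and inhibitors 6 were lower and 2 higher. Plaur, the urokinase receptor, had 1165 in KO cells and 6775 in WT cells, and its ligand Plau had 1328 in KO cells and 3251 in WT cells. Receptor and ligand were thus both lower without LPS. With LPS Plau stayed lower at -2.28, while Plaur was at -0.10. The gelatinase Mmp9 was lower at -2.70, Serpinb6b at -2.19 and Adam8 at -1.04. Ctsk, the collagen-degrading cathepsin of osteoclasts, was higher, with 26835 in KO cells and 7312 in WT cells. Other osteoclast genes were divided: the fusion genes Ocstamp and Dcstamp were lower at -2.73 and -1.26, as was the proton pump subunit Tcirg1 at -1.26 (other probe -0.21), while the carbonic anhydrase Car2 was higher at 1.06. Jam2 and Selp were under 2-fold with normexp, Tcirg1 with the mean of its probes, and Car2 with quantile normalization and in the deposited series table.

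Cell death genes had 4 higher and 1 lower of 34, and clock genes 2 higher and 2 lower of 17, beside 7.04% called among all genes. Bmf, a BH3-only protein, had 2067 in KO cells and 415 in WT cells, and Bnip3, a mitophagy receptor, had 16647 in KO cells and 7091 in WT cells. Nlrc4 (1.12) and Casp12 (a bound of 1.97) were higher too, and Bok was lower by a bound of -2.32. Ass1, the argininosuccinate synthase that recycles citrulline, had 89 in KO cells and 496 in WT cells, and 1137 in KO cells and 8340.0 in WT cells with LPS. The iron exporter Slc40a1 was higher at 1.36 and metallothionein Mt2 lower at -1.56. The stress gene Ddit4 was the only one of 32 unfolded protein and stress response genes called, at 1.24. Per2 and Nr1d1, of the circadian clock, were lower at -1.98 and -1.89, and again with LPS at -1.96 and -1.54; Rora and Bhlhe41 were higher by bounds of 1.70 and 1.70. Tgm2, a transglutaminase of alternatively activated macrophages, was lower at -1.72, and Gstt1 was the only call among 25 NRF2 target and glutathione genes, at -1.16. Of the lineage factors Gfi1 was higher at 1.94 and Klf3 lower at -1.58. Lin28b, the let-7 blocker, was called higher by a bound of 2.02, among neighbours with a median of 2.10. Nlrc4, Slc40a1, Per2, Nr1d1, Rora, Bhlhe41, Gstt1 and Lin28b were under 2-fold with normexp, where the Gstt1 log2 difference was -0.30.

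Housekeeping lists were level to within small shifts. Of 46 DNA replication and repair genes none was called, yet 44 lay above 0, with a median of 0.28; Chaf1b was highest at 0.54. Mitosis genes had a median of -0.09 without LPS and 0.73 with it, with no call among 36 without LPS. The tricarboxylic acid cycle (27 genes) and lysosome (52 genes) lists held no call, with medians of 0.05 and 0.04. Of 58 ribosomal protein genes only Rps24 was called, and of 45 respiratory chain genes only Cox4i1, a cytochrome oxidase subunit, with 29580.2 in KO cells and 87373 in WT cells, and 81338 in KO cells and 102691 in WT cells with LPS. The histone genes H1f2 and H2bc4 were lower at -1.74 and -1.27. Y-linked genes were seen on both arrays: Eif2s3y had 1460.0 in KO cells and 703 in WT cells, Uty had 141 in KO cells and 58.3 in WT cells, and Kdm5d was at 0.98. Eif2s3y and Uty were under 2-fold with normexp.

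Chromosome 13 was the only autosome with a median below 0. The 637 genes of chromosome 13 measured on both arrays had a median difference of -0.14, against medians from 0.03 to 0.07 for each other autosome and the X chromosome. With LPS the median of chromosome 13 was -0.16. The 9 genes of the Y chromosome measured on both arrays had a median of 0.245 without LPS and 0.83 with it. Of the chromosome 13 genes measured on both arrays 71.9% lay below 0, against 41.3% on the other chromosomes. Of the 724 chromosome 13 genes compared, 6.77% were called lower and 1.52% higher, beside 3.98% lower and 3.06% higher among all genes compared. The shift ran along the length of chromosome 13: in 6 windows of 20 Mb the medians lay between -0.19 and -0.09. In 133 such windows elsewhere they lay between -0.14 and 0.14. By kind of transcript, 6.76% of genes with a coding accession and 10.98% of those with a non-coding accession were called. For other accessions or probe names the share was 6.82%, and over all genes compared it was 7.04%.

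**Figure D5:**
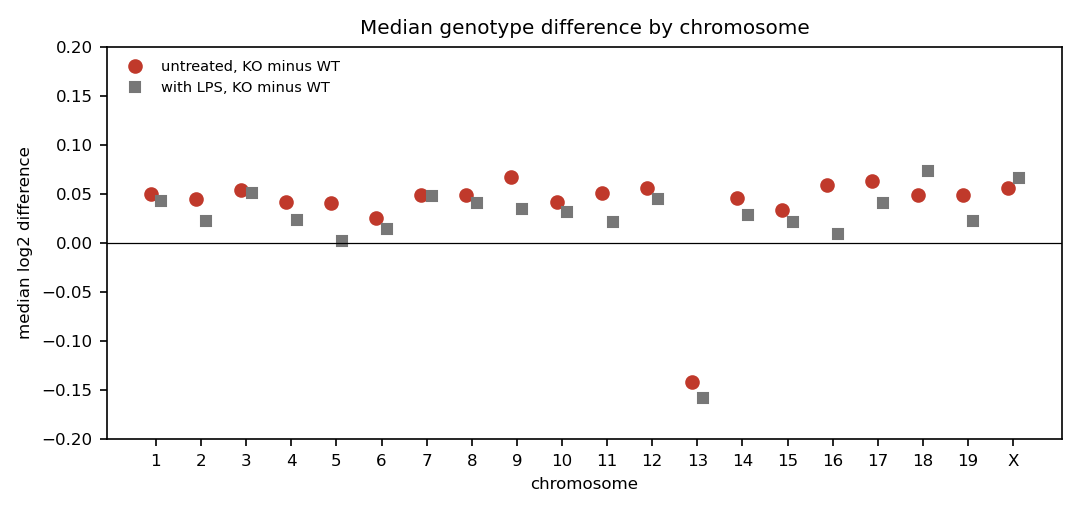
Median log2 difference, KO minus WT, of genes above background on both arrays of a pair, by chromosome, without LPS (circles) and with LPS (squares). Chromosome 13 lies at -0.14 without LPS and -0.16 with LPS, and the other autosomes and the X chromosome lie above 0 in both; the Y chromosome, with 9 genes measured on both arrays, is not drawn.

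Genes with several probes gave a check within the arrays. Of 6292 genes with 2 or more probes compared, 231 were called; in 136 of these another probe was called the same way, in 5 another was called the other way, and in 26 another had the opposite sign. The flippase gene Atp9a was at 1.82 with its other probe at -1.36, and under 2-fold with their mean. Sort1, the sorting receptor sortilin, was at 2.58 with other probes from -0.10 to 2.69. Probes spotted 5 times or more gave a technical SD of a single-spot difference of 0.13 or less, but 10 of the 277 such probes on the KO array had a normalized signal under 5000, so the scatter of dim probes is not covered by it.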

How the data were processed

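RNA of 4 RAW264.7 cultures was hybridised to Agilent 1-colour arrays, with 1 array for each group. The deposited spot values are intensities that Agilent Feature Extraction had background-subtracted and detrended within each array, per the file headers, which name version 10.7.1.1; the submitters' processing notes name 9.5.1.1. A deposited series table of intensities had been normalized between arrays, and for 52890 KO and 52973 WT probes of 56605 it lay within 0.01 (log2) of a quantile normalization made here. The deposited files also hold spot flags, of which the one for signal well above background marked dim probes.

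Processed signals of non-control spots were scaled to each array's 75th percentile and averaged over the spots of a probe. Percentile intensities were 553 in KO cells and 532 in WT cells, and 49.7% of spots in KO cells and 48.7% in WT cells were well above background. Probes were named by RefSeq accession (33895), symbol (9464), older symbol (489) or the file's own name (12757). With 1 array for each group no test was possible, and the number of arrays limits the precision. The genes named are Hsd17b4, the 20 largest measured differences and 10 largest bounds in each direction among genes with a symbol, the called members of 68 gene lists and members whose function is described. These 20 in each direction, and not the list members, had to stay 2-fold apart under normexp and quantile normalization, with no probe of the gene pointing the other way. Runx3, Tnfaip8, Ppic, Bin1, Rps24, Rpl17-ps8, Elk1, Atp9a and Sort1 were singled out after their values were seen, where this rule does not name them. These lists and the members shown were chosen with earlier results of these data known. Alternatives changed the background correction, scaling, filter on dim probes, choice of probe, threshold and source of values. The calling script was tested on simulated data for the untreated comparison of 56601 probes, 200 of them changed. Of these 94% were called at a log2 difference of 1.5 and 92% at 3, and 0 unchanged probes were called. This checks the script alone. It does not give the share of false calls on these arrays, where some groups of neighbouring spots differed together. Python 3.11.15, numpy 2.4.6, pandas 2.3.3, matplotlib 3.10.9, R 4.3.3 and limma 3.58.1 were used.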

Additional observations from a re-analysis of the deposited data

Results flagged for a closer look

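Some genes were called one way without LPS and the other way with LPS. Of those called higher without LPS 10 were called lower with it, and of those called lower 8 were called higher. 3 of these genes are described here. With 1 array for each group the difference between the conditions was not tested. Hsh2d, an adaptor of haematopoietic cells, had a normalized signal of 119.6 in KO cells and 9.32 in WT cells without LPS, and 8.09 in KO cells and 65.5 in WT cells with LPS. Its differences were bounds of 2.497 and -1.58. Kmo, the kynurenine monooxygenase of tryptophan breakdown, had 121 in KO cells and 20.1 in WT cells without LPS, and 20.4 in KO cells and 47.1 in WT cells with LPS. Its differences were bounds of 2.51 and -1.11. Both genes were above background in KO cells alone without LPS and in WT cells alone with it. Lta, the cytokine lymphotoxin α, had 12.6 in KO cells and 47.9 in WT cells without LPS, and 1789 in KO cells and 357 in WT cells with LPS. Its difference was a bound of -1.39 without LPS and a measured 2.32 with it, at a far brighter signal.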

How the results depend on the processing

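The number of genes higher in untreated KO cells was 564, and the number of genes lower in untreated KO cells 733. These became 214 and 310 with normexp background correction, 310 and 357 among genes above background on both arrays, 1897 and 2286 with no filter on dim probes, 1326 and 1407 at 1.5-fold, and 99 and 214 at 4-fold. With the mean of a gene's probes 1057 were higher and 1042 lower. Quantile normalization, median centring, spike-in centring and the deposited series table gave 526 to 595 higher and 721 to 773 lower. Leaving out genes among neighbouring spots that differed, an alternative chosen after seeing the data, gave 554 higher and 692 lower. Normexp adds an offset that shrinks differences of dim probes, and the unfiltered counts include probes below background on both arrays; otherwise the cause was not tested. Among genes named, the Bmp1 log2 difference changed sign with the mean of its probes, to -0.044; Csf1r and Lyz2, both near 0, also changed sign, the first with normexp and both with spike-in centring. The median of the immediate early genes stayed between -0.76 and -0.63, that of the interferon-stimulated effectors between 0.56 and 0.69, that of chromosome 13 between -0.18 and -0.11, and the Hsd17b4 log2 difference between -0.95 and -0.80, over the alternatives run. Bin1 and Rps24, among neighbouring spots that differed, were at -1.95 and -0.98 with the mean of probes. No paired analysis was possible because each group had 1 array.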
